A study of Homo sapiens with 23 samples.

Results

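The small nucleolar RNA (snoRNA) host long non-coding genes were followed through every knockdown of THUMPD3 in A549 cells. They were taken by name, as all genes whose symbol is SNHG and a number, together with GAS5, ZFAS1 and EPB41L4A-AS1, a rule that uses no measured value. The names gave 31 genes, all listed among the 61806 genes of the table of the first libraries and among the 42901 genes of the table of the deep libraries. THUMPD3 is an N2-methylguanosine (m2G) tRNA methyltransferase, and A549 is a human lung adenocarcinoma cell line.

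The data are 23 RNA-sequencing libraries of A549 cells, made from total RNA depleted of ribosomal RNA. The first 17 libraries hold cells transfected with control siRNA (siControl, n = 2) or with siRNA to THUMPD3 (siD3 #3, n = 3), harvested on day 5. They also hold cells with shRNA #1 to THUMPD3 (shD3 #1, n = 3) or shRNA #4 (shD3 #4, n = 3), each with its own controls (sh1Control and sh4Control, n = 3 each), harvested on day 6. The other 6 libraries are deeper sequencing of sh1Control and shD3 #1 (n = 3 each). The labels call every control wild type and every replicate biological. The shRNAs were carried by a doxycycline-inducible lentiviral vector in cells selected as a transduced population. Whether the shRNA controls were uninduced cells or received doxycycline is not stated in the labels. The paper's methods call controls untreated and knockdowns treated, and doxycycline was used there to switch on the shRNAs. If the controls received none, doxycycline and knockdown cannot be told apart in the shRNA comparisons. Whether the deep libraries came from the same cultures as the first is not given in the sources used here. With 2 or 3 libraries a group, the smallest p that an exact permutation test of 1 gene can give is 0.1, so single genes were judged from models fitted across all genes.

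snoRNAs are short nuclear RNAs that guide the chemical modification of other RNAs, mainly ribosomal RNA. Box C/D snoRNAs guide 2′-O-methylation through fibrillarin (FBL), and box H/ACA snoRNAs guide pseudouridylation through dyskerin (DKC1). Most human snoRNAs are cut from introns. In the genes described here the introns carry the snoRNAs, while the spliced exons form an RNA with little coding capacity that is often translated briefly and removed by nonsense-mediated decay. Many of these genes start transcription at a run of pyrimidines, the terminal oligopyrimidine (TOP) start that they share with ribosomal protein genes and that ties the translation of such RNAs to growth signals. GAS5 is named for the rise of its RNA in growth-arrested cells.

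The starts of the genes that the results below turn on are shown because the TOP start is the feature that sets many snoRNA hosts apart from other non-coding genes. Each sequence runs from 15 bases before to 15 bases after the start annotated by RefSeq on GRCh38.p14, 5′ to 3′ on the strand of the gene. Capitals mark an unbroken stretch of pyrimidines whose first C lies within 10 bases of the annotated start and has at least 4 more pyrimidines after it, searched on the strand of the gene alone. SNHG7 and SNHG17 held such a run too, and it is shown for these 5 genes called lower in at least 1 comparison:

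ZFAS1, chr20:49278627-49278656, plus strand: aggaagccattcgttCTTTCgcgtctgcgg
SNHG4, chr5:139274086-139274115, plus strand: ctcggctcccggctgCCCTTTCCCCTCCgg
SNHG5, chr6:85678719-85678748, minus strand: gctgcgcacttcggtCTTTTacgtcggcct
SNHG12, chr1:28581859-28581888, minus strand: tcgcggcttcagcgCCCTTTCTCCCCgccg
SNHG19, chr16:2155344-2155373, minus strand: ctcgcccgcccctgtCTTTTCggggtcgag

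SNHG14, whose values were above its controls in every comparison, held a run before its annotated start, and the other genes shown here held none by this rule. The stretch of SNHG29 begins more than 10 bases before its start and is left unmarked:

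SNHG14, chr15:24823593-24823622, plus strand: cagttgtCCTCCTgcgccgacctcgaatgc
SNHG26, chr7:22854225-22854254, plus strand: ccttttaaacttgatctccgcagtgccctc
SNHG3, chr1:28505928-28505957, plus strand: cctcagtgagtttctgattctctaactgcg
SNHG1, chr11:62855871-62855900, minus strand: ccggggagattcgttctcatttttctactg
GAS5, chr1:173869031-173869060, minus strand: tgccatcatgaattcagatgtgtttatttt
SNHG29, chr17:16438972-16439001, plus strand: cccctccttttgtgaggattgggatattcc

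A run was found at 14 of the 27 snoRNA host genes whose start was in the RefSeq table (51.9%), at 64 of 86 ribosomal protein genes (74.4%) and at 10664 of all 35116 starts (30.4%). SNHG6, SNHG9, SNHG15 and SNHG25 had no entry. Under a rule added after the data were seen, which lets a run begin at any C within 10 bases, also inside a longer stretch, SNHG29 is added, and the counts become 15 of 27 (55.6%), 65 of 86 (75.6%) and 11404 of 35116 (32.5%). An unmarked sequence says only that no such stretch begins that near to this annotated start. The RefSeq start lies 1 base outside the GENCODE span of the gene in SNHG4, 37 in SNHG3, 163 in GAS5 and 154975 in SNHG14, so the annotated start may not be the one used in A549 cells.

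The level of the snoRNA host genes in the control libraries was compared per kilobase (kb) of exon, in cpm, which are read counts scaled to a common library total with trimmed mean of M-values (TMM) normalisation. Averaged over the 3 control groups of the first libraries, the highest levels were those of SNHG16 (22.6 cpm per kb), GAS5 (22.5), SNHG1 (20.3), SNHG19 (20.02) and SNHG29 (19.6). The order was not the same within a group. In sh1Control GAS5 stood first at 21.5 ± 0.750 cpm per kb (SD, n = 3), followed by SNHG1 at 19.8 ± 0.905, SNHG19 at 19.3 ± 0.766, SNHG16 at 18.3 ± 0.870 and SNHG29 at 15.7 ± 0.932. Neighbours in this order from SNHG1 to SNHG16 differed by less than the sum of their SDs. GAS5 was at 3.64 cpm per kb in the deep controls, where reads were counted with another gene annotation, so levels in the 2 tables were not compared. The same 5 genes lead when the deep controls are averaged in, but that average mixes 2 annotations and adds no support to the order. The lengths cover all annotated exons, 8947 bases in SNHG29 and 5776 in SNHG16, against 443 and 498 in their canonical transcripts. The order therefore depends on the annotated length. SNHG14 had 169 ± 8.37 cpm in sh1Control but only 1.38 cpm per kb, since its annotated exons span 122609 bases.

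Not every snoRNA host gene was measurable. SNHG18 and SNHG27 were under the filter on low counts in every comparison. SNHG28 and SNHG31 were under it in the first libraries, and SNHG22, SNHG25 and SNHG32 in the deep ones. This left 27 tested genes in each comparison of the first libraries and 26 in the deep comparison, 24 of them in all 4.

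The first libraries held 9854294 to 22101059 counts, the deep controls 51101905 to 59974740 and the deep knockdown libraries 27285889 to 35458367. THUMPD3 itself was below every control library in each comparison and stood at 17.1% (siD3 #3), 51.3% (shD3 #1), 31.4% (shD3 #4) and 49.6% (deep shD3 #1) of its control mean. The epithelial markers of A549 cells were high, at a summed 2370 to 5511 cpm over 5 genes. Their calls (rule given below) went both ways, with 1 higher in siD3 #3 and 0 in shD3 #4. In shD3 #1 2 were higher (KRT19 highest, 1.95) and 1 lower, and in the deep libraries 3 were higher (EPCAM highest, 1.89) and 1 lower. CDH1 was lowest in both (-1.39). Of 6 aldo-keto and aldehyde enzymes, 1 was called higher and 1 lower in shD3 #1, 1 higher in shD3 #4 and 1 lower in the deep libraries. Of 5 markers of alveolar type II cells, SFTPC and NKX2-1 were at most 0.343 and 0.288 cpm. NAPSA, the 1 of these that passed the filter, had control means of 1.36 to 1.86 cpm and was called in no comparison, by the rule given below. Of 3 endothelial markers, CDH5 was called higher in shD3 #4 (mean 0.931 against 0.286 cpm) and in the deep knockdown (0.708 against 0.298 cpm). In siD3 #3 CDH5 was at 0.526 against 0.151 cpm and was not called, and in shD3 #1 no endothelial marker passed the filter. Of 5 leukocyte markers, PTPRC was at most 0.229 cpm, and the summed level was at most 4.93 cpm in the first libraries. The sum was 52.9 to 54.9 cpm in the deep controls and 93.9 to 101 cpm in the deep knockdown, most of it CD68 (45.9 to 49.0 and 89.2 to 96.3 cpm). CD14 was called lower in shD3 #1 (-0.79), and CD68 was called higher in the deep libraries (1.02). Of 7 fibroblast markers, the summed level was 3.24 to 4.93 cpm in siControl and 7.33 to 9.03 in siD3 #3, 6.74 to 8.52 in sh1Control and 16.0 to 18.8 in shD3 #1, 4.67 to 8.74 in sh4Control and 10.7 to 14.1 in shD3 #4, and 8.25 to 9.02 in the deep controls and 31.3 to 33.0 in the deep knockdown. Of the fibroblast markers that passed the filter, 1 of 3 was called higher in siD3 #3, 3 of 4 in shD3 #1 and 2 of 3 in shD3 #4. In the deep libraries 4 of 4 were called higher, and 0 were called lower in any comparison. The highest deep log2 fold change among them was that of COL3A1 (5.63). The fibroblast marker DCN was at 0 in every deep library and at most 0.0577 cpm in the first. Mitochondrially encoded genes took 24.8% to 37.4% of the counts of the first libraries, 14.7% to 15.4% of those of the deep controls and 11.8% to 12.5% of those of the deep knockdown. The part of any of these in the values below was not tested. In bulk RNA, fewer cells that express a gene and less RNA per cell cannot be told apart.

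The controls of each knockdown served as its baseline, to ask how the RNA of the snoRNA host genes stood after THUMPD3 was depleted. A gene was called where the edgeR quasi-likelihood test gave a Benjamini-Hochberg adjusted p under 0.05 over all genes and the change was at least 1.5-fold in either direction. Over the 4 comparisons 17 snoRNA host genes were called lower at least once and 3 were called higher at least once, with SNHG21 in both counts. In a single comparison 4.49% to 14.6% of all genes were called lower and 8% to 15% higher. The share of all genes called at least once is larger and is not given here, so these counts are a description only. Of the 24 genes tested in every comparison, 10 had a log2 fold change below 0 in all 4, and 1 (SNHG14) had one above 0 in all 4. The like shares over all genes are not given here, and shRNA #1 served in both shD3 #1 and deep shD3 #1.

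**Figure D1:**
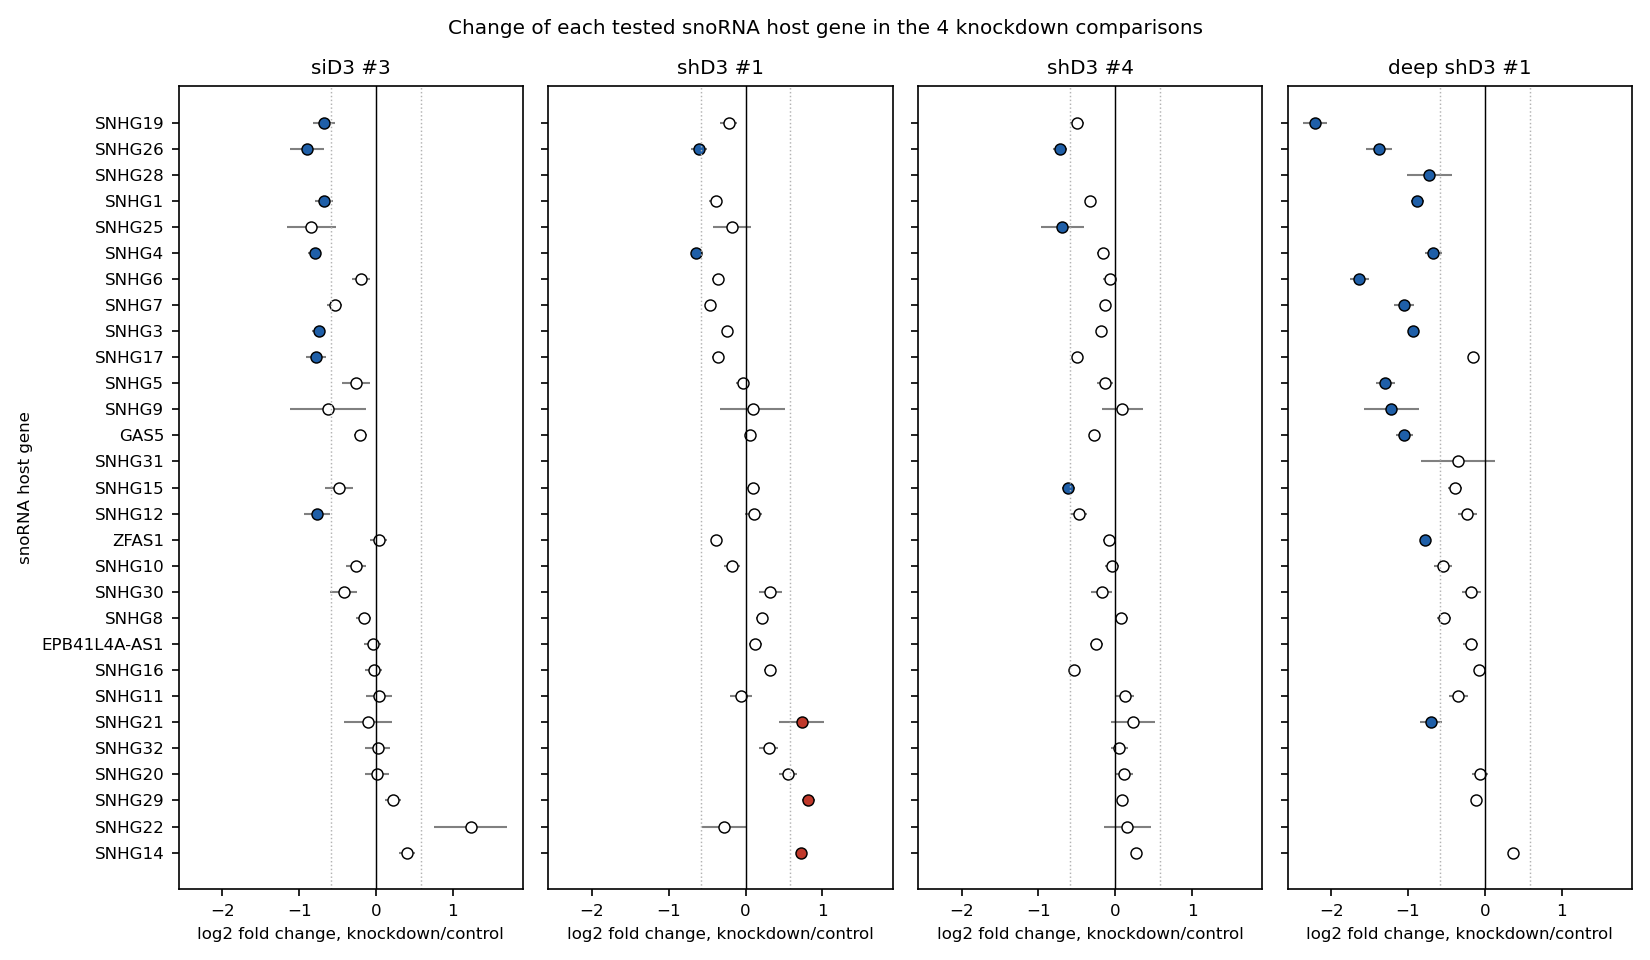
Log2 fold change of each snoRNA host gene (knockdown/control, x axis; bars are ± 1 standard error) in siD3 #3, shD3 #1, shD3 #4 and deep shD3 #1, 1 panel each. Blue points were called lower, red points higher and white points not called, and dotted lines mark a 1.5-fold change. The deep panel holds 13 blue points and the shD3 #1 panel 3 red ones.

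After siRNA depletion, 7 of the 27 tested genes were called lower, beside 9.42% of all genes tested and 4.17% of annotated long non-coding genes. These were SNHG1, SNHG3, SNHG4, SNHG12, SNHG17, SNHG19 and SNHG26. None was called higher, beside 12.5% of all genes and 10.8% of long non-coding genes. At an unadjusted p under 0.05, 2 genes were higher (22.7% of all genes) and 12 were lower (21.6%), and DESeq2 made the same numbers of calls as edgeR. The median log2 fold change of the 27 genes was -0.26, beside 0.03 over all genes and 0.18 over long non-coding genes. In 14 genes every siD3 #3 library was below both siControl libraries (29.5% of all genes), and in 3 every one was above (30.5%).

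In shD3 #1, the calls went both ways. SNHG4 and SNHG26 were called lower, 2 of 27 beside 14.6% of all genes and 14.4% of long non-coding genes, and SNHG14, SNHG21 and SNHG29 were called higher, 3 of 27 beside 14.5% of both. The median of -0.04 lay close to that of all genes (-0.01). Every knockdown library was below every control in 8 genes (31.2% of all genes) and above in 6 (30.8%).

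In shD3 #4, SNHG15, SNHG25 and SNHG26 were called lower, 3 of 27 beside 4.49% of all genes and 3.2% of long non-coding genes, and the libraries of SNHG25 overlapped between the groups. None was called higher, beside 8% of all genes and 9.13% of long non-coding genes, and 1 was higher at an unadjusted p under 0.05 (23.7%). DESeq2 called 2 lower and 0 higher. The median was -0.14, beside 0.01 over all genes and 0.14 over long non-coding genes. Every knockdown library was below every control in 11 genes (24.7% of all genes) and above in 2 (24.7%).

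The deep libraries of the same shRNA #1 gave the most calls. GAS5, ZFAS1, SNHG1, SNHG3, SNHG4, SNHG5, SNHG6, SNHG7, SNHG9, SNHG19, SNHG21, SNHG26 and SNHG28 were called lower, 13 of 26 beside 14.1% of all genes and 19.1% of annotated long non-coding genes. None was called higher, beside 15% of all genes and 15.6% of long non-coding genes, and 1 was higher at an unadjusted p under 0.05 (32.5%). DESeq2 called 12 lower and 0 higher. The median was -0.61, beside -0.02 over all genes and -0.09 over long non-coding genes. Every knockdown library was below every control in 19 genes (34% of all genes) and above in 1 (33.2%). SNHG28 was called although its libraries overlapped. In GENCODE an unnamed protein-coding gene on the same strand covers 90.8% of its exon bases.

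Summed over all snoRNA host genes, the level was 1155 and 1190.1 cpm in siControl and 1108, 1082 and 1059 cpm in siD3 #3. In shD3 #1 the sum was 1178, 1155 and 1263 cpm, above the 1039, 1001 and 1041 cpm of its controls. In shD3 #4 it was 950.4, 943 and 963 cpm, below the 1079, 1012 and 1021 cpm of its controls. The deep sums fell from 619, 633 and 604 cpm to 468, 483 and 511 cpm. The sum is carried by a few abundant genes such as SNHG29, SNHG14 and SNHG16, so its direction can differ from that of the median gene, as it did in shD3 #1.

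SNHG26 was the gene called lower in all 4 comparisons. It lies at chr7:22854126-22872952 on the plus strand (GRCh38) and hosts the box C/D snoRNA SNORD93. It had 17.5 and 14.9 cpm in siControl and 7.74, 6.80 and 11.6 cpm in siD3 #3, a log2 fold change of -0.90 ± 0.22 (SE; adjusted p = 0.0181, edgeR). In shD3 #1 it had 12.5, 9.63 and 12.7 cpm against 18.0, 17.4 and 16.9 cpm in its controls (-0.61 ± 0.107, adjusted p = 0.000159). With shRNA #4 the values were 9.13, 9.23 and 8.78 cpm against 16.1, 14.2 and 14.4 cpm (-0.72 ± 0.0944, adjusted p = 1.01e-06). Its deep libraries held 1.499, 1.68 and 1.08 cpm against 3.77, 3.87 and 3.28 cpm (-1.38 ± 0.175, adjusted p = 7.57e-06). In no comparison did a knockdown library reach a control library. The siRNA call rested on single libraries, since its adjusted p was 0.122 without siControl replicate 1, 0.0573 without siControl replicate 2, and 0.0568 or 0.0570 without siD3 #3 replicate 1 or 2, within a range of 8.16e-07 to 0.213 over 15 alternatives. The shD3 #1 call lost the fold threshold without sh1Control replicate 1 (-0.57) or shD3 #1 replicate 2 (-0.47).

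SNHG4, the host of the SNORA74 snoRNAs of box H/ACA at chr5:139274102-139284899 (plus strand), was called lower in 3 comparisons. It had 49.0 and 49.4 cpm in siControl and 27.6, 29.2 and 27.9 cpm in siD3 #3 (-0.80 ± 0.0865, adjusted p = 0.000448). It had 43.8, 44.3 and 43.8 cpm in sh1Control and 27.99, 28.4 and 28.3 cpm in shD3 #1 (-0.64 ± 0.0651, adjusted p = 5.11e-07). In both comparisons every knockdown library lay well below every control library. In shD3 #4 the values overlapped, with 41.3, 33.8 and 43.1 cpm against 46.3, 41.1 and 44.3 cpm (-0.15 ± 0.0794, adjusted p = 0.125). Its values in the deep libraries were 7.11, 7.65 and 6.18 cpm against 10.45, 12.6 and 10.1 cpm (-0.67 ± 0.109, adjusted p = 8.77e-05), under the fold threshold without deep sh1Control replicate 2 (-0.57) or deep shD3 #1 replicate 3 (-0.58). SNHG4 shares 626 of its exon bases with MATR3 on the same strand.

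SNHG1 and SNHG3 were called lower in siD3 #3 and in the deep libraries and stood below every control in all 4 comparisons. SNHG1, at chr11:62851978-62855953 on the minus strand, hosts a group of box C/D snoRNAs that guide the methylation of ribosomal RNA. It had 84.2 and 82.7 cpm in siControl and 49.6, 47.1 and 59.9 cpm in siD3 #3 (-0.68 ± 0.114, adjusted p = 0.00359). The deep libraries gave 38.3, 38.8 and 32.2 cpm in the controls and 17.8, 19.2 and 22.2 cpm in the knockdown (-0.88 ± 0.0859, adjusted p = 4.9e-07). Its changes in shD3 #1 (-0.39 ± 0.0799, adjusted p = 0.000599) and shD3 #4 (-0.33 ± 0.0651, adjusted p = 0.000191) passed the adjusted p but not the fold threshold. The siRNA and deep values thus ran beyond the fold threshold and the values of the other shRNA libraries did not.

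SNHG3, at chr1:28505980-28510892 on the plus strand, hosts SNORA73A and SNORA73B. It had 75.2 and 69.1 cpm in siControl and 44.8, 40.9 and 43.5 cpm in siD3 #3 (-0.74 ± 0.0886, adjusted p = 0.000711). The deep libraries gave 45.3, 46.9 and 40.7 cpm in the controls and 23.3, 24.04 and 22.2 cpm in the knockdown (-0.94 ± 0.0636, adjusted p = 9.94e-09). In shD3 #1 (56.0, 58.5 and 55.7 cpm against 67.8, 65.2 and 69.1 cpm) and shD3 #4 (55.5, 59.5 and 63.2 cpm against 69.9, 64.0 and 68.0 cpm) the log2 fold changes were -0.25 and -0.18. SNHG3 shares 5.92% of its exon bases with RCC1 on the same strand.

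SNHG19 is among the shortest of these genes (chr16:2154792-2155405, minus strand) and showed the largest fall of any of them. Its canonical transcript has 394 bases, in a length class of which 36.3% of all genes were called lower in the deep libraries. It had 10.2, 10.48 and 9.04 cpm in the deep controls and 1.47, 2.23 and 2.66 cpm in the deep knockdown (-2.21 ± 0.152, adjusted p = 1.21e-08). In siD3 #3 it had 7.78, 6.74 and 7.22 cpm against 11.3 and 11.9 cpm (-0.68 ± 0.14, adjusted p = 0.00875), and this call was lost without siControl replicate 2 (adjusted p = 0.0588, within 7.31e-05 to 0.482 over 15 alternatives). The shD3 #4 libraries held 9.74, 8.89 and 9.87 cpm against 13.4, 13.1 and 13.8 cpm (-0.50 ± 0.0937, adjusted p = 0.000122). The groups did not overlap in any of these, whereas in shD3 #1 the 8.84, 10.4 and 11.5 cpm of the knockdown reached the 12.1, 11.3 and 12.1 cpm of the controls (-0.22 ± 0.111, adjusted p = 0.101).

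**Figure D2:**
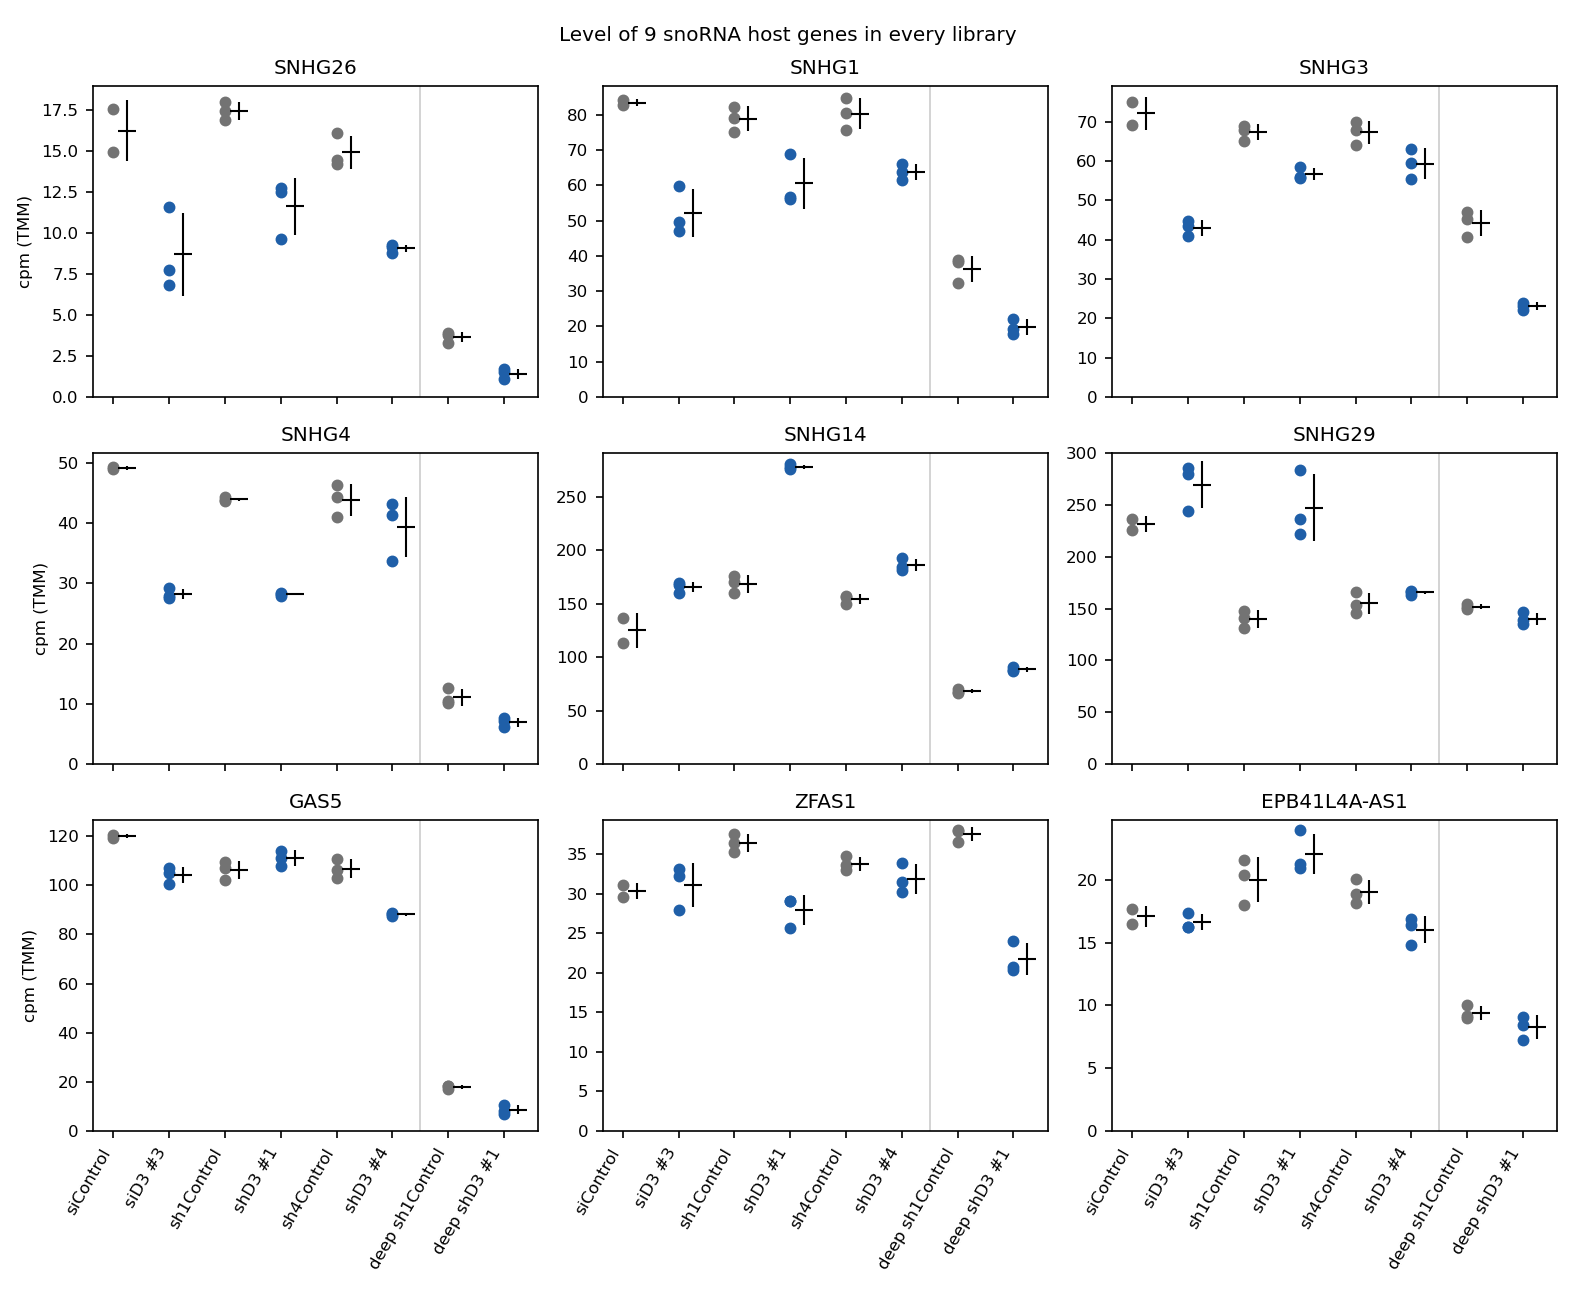
Level of 9 snoRNA host genes in every library (TMM-scaled cpm, y axis) by group (x axis). Each point is 1 library, grey for controls and blue for knockdowns, the black bars are mean ± SD, and the vertical line separates the deep libraries, which were counted and normalised apart. SNHG26 lay below its controls in all 4 comparisons and SNHG14 above them.

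SNHG14 is the long imprinted transcript that runs antisense to UBE3A and hosts the SNORD115 and SNORD116 clusters, at chr15:24978583-25420336 on the plus strand. It had 113 and 136 cpm in siControl and 167, 160.2 and 169 cpm in siD3 #3 (0.41 ± 0.104, adjusted p = 0.0196). In shD3 #1 it rose from 170.3, 176 and 159.6 cpm to 280.0, 276 and 277 cpm (0.72 ± 0.0585, adjusted p = 3.92e-08), the comparison in which it was called. The shD3 #4 libraries held 193, 181 and 184 cpm against 157, 149 and 157 cpm (0.27 ± 0.062, adjusted p = 0.000969). Deep sequencing gave 90.9, 86.7 and 87.6 cpm against 66.6, 67.6 and 70.6 cpm (0.37 ± 0.0455, adjusted p = 5.1e-06). Every knockdown library stood above every control in each of the 4 comparisons, a pattern no other snoRNA host gene tested in all 4 showed.

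SNHG29, a host of box C/D snoRNAs at chr17:16438767-16480249 on the plus strand, rose in shD3 #1 from 141, 131 and 148 cpm to 236, 222 and 284 cpm (0.82 ± 0.0819, adjusted p = 4.16e-07). In siD3 #3 it had 285, 280.0 and 244 cpm against 226 and 237 cpm (0.22 ± 0.103, adjusted p = 0.136). With shRNA #4 there were 166, 164 and 167 cpm against 166, 154 and 145 cpm (0.10 ± 0.0643, adjusted p = 0.253). In the deep libraries of the same shRNA #1 the 135, 139 and 146 cpm of the knockdown lay just below the 152, 154 and 149.7 cpm of the controls (-0.12 ± 0.0429, adjusted p = 0.0281). The rise in the first shD3 #1 libraries was thus not seen in the deep ones.

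SNHG21 was called in both directions, and its counts were low. It had 0.937, 1.22 and 1.22 cpm in shD3 #1 against 0.675, 0.696 and 0.655 cpm in its controls, from 12 to 23 counts a library in the first table (0.73 ± 0.295, adjusted p = 0.0455). That call was lost with DESeq2 (adjusted p = 0.170) and without any 1 of 5 of the 6 libraries, within a range of 0.0335 to 0.498 over 16 alternatives. Deep sequencing gave 2.28, 2.96 and 2.83 cpm against 4.91, 4.15 and 4.06 cpm (-0.70 ± 0.143, adjusted p = 0.000588). An unnamed gene on the same strand covers 72.9% of its exon bases. SNHG22 had the highest log2 fold change in siD3 #3 (1.23 ± 0.48, adjusted p = 0.0853), from 0.849, 0.514 and 0.996 cpm against 0.381 and 0.277 cpm, and was not called.

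GAS5, at chr1:173858559-173868882 on the minus strand, was called lower in the deep libraries, at 6.94, 8.31 and 10.6 cpm against 18.3, 18.3 and 17.2 cpm (-1.05 ± 0.111, adjusted p = 1.23e-06). In shD3 #4 it had 87.5, 88.5 and 88.7 cpm against 111, 103 and 106 cpm (-0.28 ± 0.0619, adjusted p = 0.000817). In siD3 #3 it had 105, 100.4 and 107 cpm against 121 and 119 cpm (-0.20 ± 0.0811, adjusted p = 0.0914). These 3 comparisons had every knockdown library below every control. In the first shD3 #1 libraries the groups overlapped, with 111, 108 and 114 cpm against 107, 102 and 109.5 cpm (0.06 ± 0.06, adjusted p = 0.394).

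ZFAS1, at chr20:49278178-49299600 on the plus strand, hosts 3 box C/D snoRNAs of the SNORD12 family. It had 25.7, 29.1 and 29.0 cpm in shD3 #1 against 36.4, 35.3 and 37.6 cpm in its controls (-0.38 ± 0.0728, adjusted p = 0.000309). In the deep libraries it had 20.4, 20.8 and 24.04 cpm against 38.1, 37.9 and 36.5 cpm (-0.78 ± 0.0649, adjusted p = 8.63e-08), where it was called lower. Both measurements of shRNA #1 therefore placed every knockdown library below every control. In siD3 #3 (32.2, 33.1 and 27.99 cpm against 29.6 and 31.0 cpm) and shD3 #4 (31.5, 30.2 and 33.8 cpm against 33.6, 33.0 and 34.7 cpm) the groups overlapped, with log2 fold changes of 0.04 and -0.08.

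EPB41L4A-AS1, the host of SNORA13 at chr5:112160526-112164818 on the plus strand, was called in no comparison. Its log2 fold changes were -0.04 ± 0.111 in siD3 #3, 0.13 ± 0.0883 in shD3 #1, -0.25 ± 0.0839 in shD3 #4 and -0.18 ± 0.0966 in the deep libraries. Its groups overlapped except in shD3 #4, where 14.8, 16.9 and 16.4 cpm stood below 18.9, 18.1 and 20.04 cpm (adjusted p = 0.0197). On the opposite strand EPB41L4A covers 51.2% of its exon bases, and the strand setting of the counting is not given in the sources used here.

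SNHG16, the gene of highest mean level per kb, moved in opposite directions with the 2 shRNAs. In shD3 #1 it had 129, 118 and 147 cpm against 102, 103 and 111 cpm (0.31 ± 0.0763, adjusted p = 0.00244). In shD3 #4 it had 85.1, 78.1 and 82.7 cpm against 127, 121 and 108 cpm (-0.53 ± 0.0685, adjusted p = 7.24e-07). Neither change reached the fold threshold. In siD3 #3 and the deep libraries the log2 fold changes were -0.03 ± 0.109 (adjusted p = 0.873) and -0.08 ± 0.046 (adjusted p = 0.144).

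SNHG5, SNHG6, SNHG7 and SNHG9 were called lower in the deep libraries alone. SNHG6 had 6.19, 7.25 and 10.4 cpm against 26.2, 24.96 and 23.5 cpm (-1.63 ± 0.126, adjusted p = 3.99e-08). SNHG5 had 9.94, 11.01 and 16.6 cpm against 30.8, 32.2 and 30.2 cpm (-1.30 ± 0.127, adjusted p = 5.03e-07). For both, the highest knockdown library was far below the lowest control. SNHG7 had 3.32, 4.46 and 4.96 cpm against 8.01, 9.41 and 9.28 cpm (-1.06 ± 0.13, adjusted p = 5.43e-06) and was also below every control in each comparison of the first libraries. SNHG9 was low, at 0.228, 0.329 and 0.305 cpm against 0.884, 0.615 and 0.505 cpm (-1.22 ± 0.355, adjusted p = 0.00801). SNHG12 and SNHG17 were called lower in siD3 #3 alone (-0.77 ± 0.168, adjusted p = 0.0109, and -0.78 ± 0.131, adjusted p = 0.00354). MCMDC2 covers 58.9% of the exon bases of SNHG6 on the opposite strand.

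The effects of the 2 shRNAs were then compared in 1 model of all 17 first libraries. The difference between them passed an adjusted p of 0.05 in 11 of the 27 genes. The effect of shD3 #1 was higher than that of shD3 #4 in 8 genes, beside 19.6% of all genes, and lower in 3, beside 19.8%. The largest difference on the log2 scale was that of SNHG16 (0.84 ± 0.125, adjusted p = 1.86e-05), followed by SNHG29 (0.72, adjusted p = 7.5e-05) and SNHG15 (0.71, adjusted p = 0.00171). SNHG4 was the gene with the lowest difference (-0.49, adjusted p = 0.00149), at -0.64 in shD3 #1 and at -0.15, with overlapping groups, in shD3 #4. For SNHG26 the difference was 0.11 ± 0.203 (adjusted p = 0.698), which does not show that the shRNAs acted alike.

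The effect of siD3 #3 was set against the mean of the 2 shRNA effects in the same model. It was lower in 5 genes, beside 14.6% of all genes, and higher in 1, beside 14.5%. SNHG12 (-0.57, adjusted p = 0.0185), SNHG3 (-0.52, adjusted p = 0.000161) and SNHG4 (-0.39, adjusted p = 0.00731) were among those lower after siRNA, and ZFAS1 was the one higher (0.28, adjusted p = 0.0412). The number lower was 2 without siControl replicate 1 and 10 without siD3 #3 replicate 3, so it depended on single libraries of the siRNA arm. The siRNA and shRNA arms also differed in the day of harvest and in the way of delivery, which cannot be told apart from the sequence used.

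For shRNA #1 itself, the first and the deep measurement were compared in 1 model of 12 libraries, over 15786 genes matched by symbol. Reads of the first and the deep libraries were counted with different gene annotations, so a symbol can cover different exons in each. GAS5 had 106 cpm in sh1Control and 17.9 cpm in the deep controls, and SNHG21 had 0.675 and 4.37 cpm. The part of the annotation in the differences was not tested. The effect in the deep libraries was lower in 16 of 28 snoRNA host genes, beside 11.5% of all genes. It was higher in none, beside 13.2%, and the count at an unadjusted p under 0.05 was also 0. The differences on the log2 scale reached -2.00 ± 0.197 (SE) for SNHG19, -1.46 for SNHG21, -1.30 for SNHG6, -1.28 for SNHG5 and -1.13 for GAS5. SNHG14, above its controls in both measurements, had a difference of -0.37. SNHG4, with -0.64 in the first and -0.67 in the deep libraries, was a gene whose effects lay side by side. THUMPD3 stood at a like share of its control in both (51.3% and 49.6%).

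**Figure D3:**
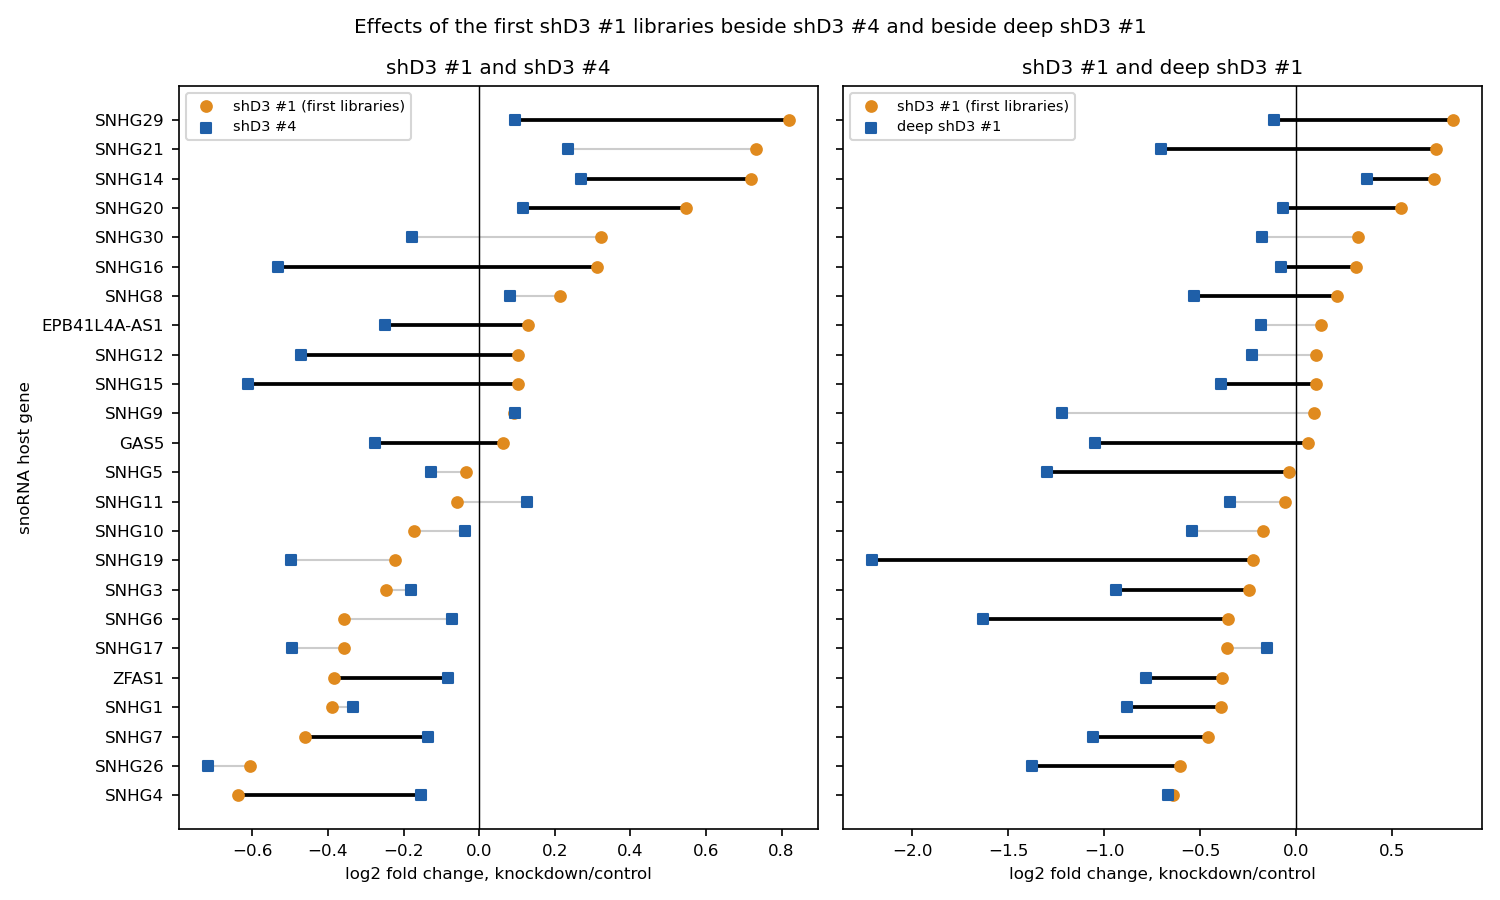
Log2 fold change (x axis) of the 24 snoRNA host genes tested in all 4 comparisons: the first shD3 #1 libraries (orange circles) beside shD3 #4 (left panel, blue squares) and beside deep shD3 #1 (right panel, blue squares). A black line joins effects whose difference passed an adjusted p of 0.05, a grey line those whose difference did not. In the right panel every black line runs to the left, from SNHG14 (-0.37) to SNHG19 (-2.00).

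The deep libraries differed from the first in how called genes were spread over transcript length. Among all deep genes with a canonical transcript of at least 300 and under 600 bases, 36.3% were called lower and 9.40% higher, whereas from 4000 bases on 10.9% were called lower and 16.8% higher. Among the snoRNA host genes, the 5 tested from 300 to under 600 bases had a median log2 fold change of -0.12, the 2 from 600 to under 1000 bases -0.88, the 8 from 1000 to under 2000 bases -0.61, the 8 from 2000 to under 4000 bases -0.61 and the 3 of 4000 bases or more -0.53. All genes from 300 to under 600 bases had a median of -0.36, those from 600 to under 1000 bases -0.14, those from 1000 to under 2000 bases -0.06 and those of 4000 bases or more 0.05. The snoRNA host genes from 300 to under 600 bases were unlike each other. SNHG19 (394 bases) and SNHG9 (339 bases) were at -2.21 and -1.22, and SNHG29, SNHG16 and SNHG20 at -0.12, -0.08 and -0.07. The part of transcript length in the deep values was not tested further.

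**Figure D4:**
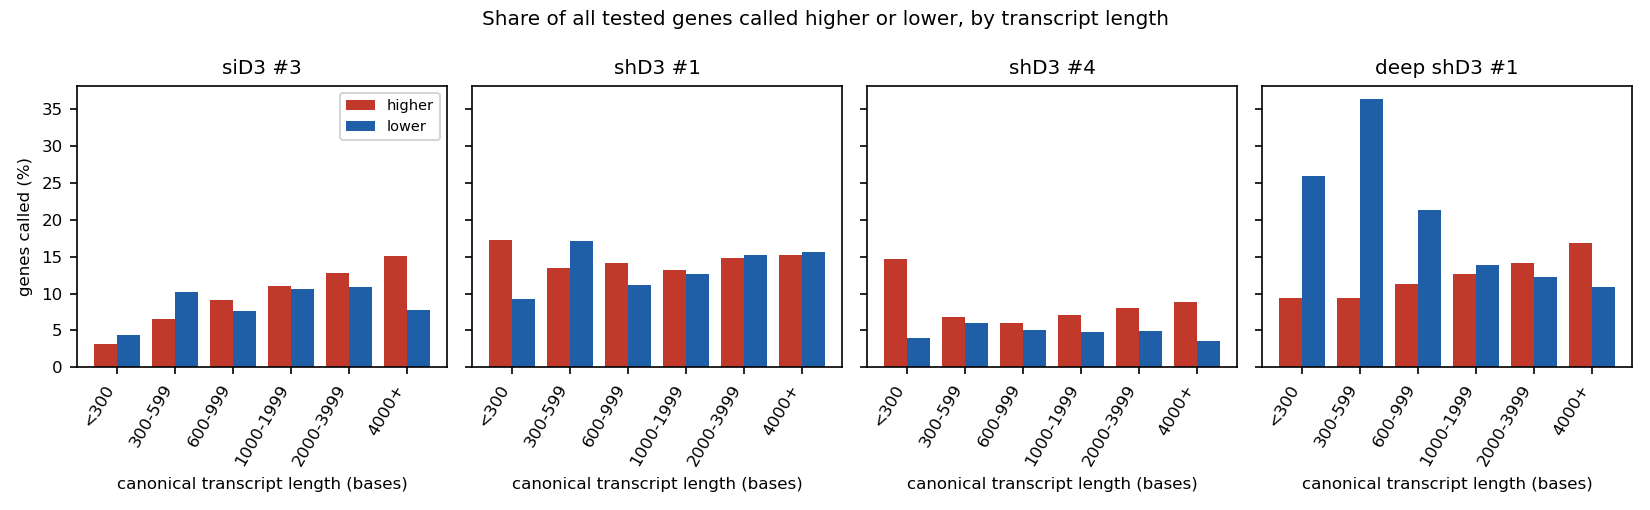
Share of all tested genes called higher (red) or lower (blue), in per cent (y axis, from 0), by length of the canonical transcript (x axis), 1 panel for each comparison. In the deep libraries 36.3% of genes from 300 to under 600 bases were called lower, a share not approached in the first libraries.

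The tables also count snoRNAs as genes of their own. Per the labels, RNA was extracted with RNeasy Mini columns, a kit made for longer RNA, though its recovery of short RNA in these samples was not measured. Reads on a snoRNA can come from the host transcript as well as from the processed snoRNA. In the first libraries 5 to 7 of the 144 snoRNAs annotated within the host genes passed the filter, and in the deep libraries 48 of 146. Each that passed in the first libraries overlapped 0 exon bases of its host in GENCODE. The deep libraries were counted with another annotation, and GAS5 hosts 11 snoRNAs in RefSeq against 0 in GENCODE. The part of the annotation in these numbers was not tested. In the deep libraries 18 of the 48 were called lower, beside 14.1% of all genes and 25.9% of genes with a canonical transcript under 300 bases. Higher calls were made for 2, beside 15% and 9.46%, and the median log2 fold change was -0.46. Without those in SNHG14, 16 of 30 were called lower, with a median of -0.79.

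Of the snoRNAs of genes called lower in the deep libraries, both tested in SNHG3 and both in SNHG4 were called lower, as were 3 of 4 in SNHG1, 2 of 4 in GAS5, 2 of 3 in ZFAS1 and the 1 tested in SNHG5, while the 1 tested in SNHG21 (SCARNA15, -0.35) was not. SNORA16A in SNHG12 (-0.92), SNORA71D in SNHG17 (-0.78), SNORD49A in SNHG29 (-0.85) and SCARNA17 in SNHG22 (-1.22) were called lower although their hosts were not called or not tested. SNORD30, in SNHG1, had 0.475 ± 0.205 cpm in the deep controls and 0.00923 ± 0.0160 cpm in the knockdown (SD, n = 3; adjusted p = 7.37e-05, edgeR). These levels came from 26, 35 and 16 counts against 0, 0 and 1, a ratio of 2.33% of the control with a 95% interval of 0.0583% to 13.4% (exact binomial, counting error only). SNORD22 (-1.76) and SNORD31 (-1.04), in the same gene, were called lower as well. In GAS5, SNORD78 (-1.79 ± 0.436, adjusted p = 0.00245) and SNORD44 (-1.33 ± 0.468, adjusted p = 0.0231) were called lower, out of 4 tested. Both were low, with deep control means of 0.483 and 0.456 cpm, and the libraries of SNORD44 overlapped between the groups. In SNHG14, whose RNA was higher, 2 of 18 snoRNAs were called higher and 2 lower. SNORD116-20 was at 2.85 ± 0.329 cpm against 1.12 ± 0.285 (1.36 ± 0.199, adjusted p = 3.09e-05), and SNORD116-13 at 0.513 ± 0.161 against 1.36 ± 0.164 (-1.44 ± 0.264, adjusted p = 0.000258). The SNORD116 copies are near-identical, so their single values are uncertain.

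SNORA73B, in SNHG3, was the most abundant of these snoRNAs in the first libraries and went both ways. It was at 17.2 ± 3.08 cpm in the deep controls and 2.79 ± 0.307 cpm in the deep knockdown (-2.61 ± 0.143, adjusted p = 1.04e-09). In shD3 #4 it was higher, at 110 ± 30.8 cpm against 48.4 ± 7.62 cpm (1.18 ± 0.128, adjusted p = 4.89e-08), while SNHG3 was at -0.18. In the first shD3 #1 libraries the value was 0.99 ± 0.418 with overlapping groups (adjusted p = 0.0548), and in siD3 #3 -0.13 ± 0.168 (adjusted p = 0.586). SNORA74A, in SNHG4, showed the same pair of directions, with 0.92 ± 0.178 in shD3 #4 and -1.52 ± 0.305 in the deep libraries (adjusted p = 0.000156 and 0.000546). SNORA73A and SNORA73B are near-identical, so reads could be split between them or dropped.

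**Figure D5:**
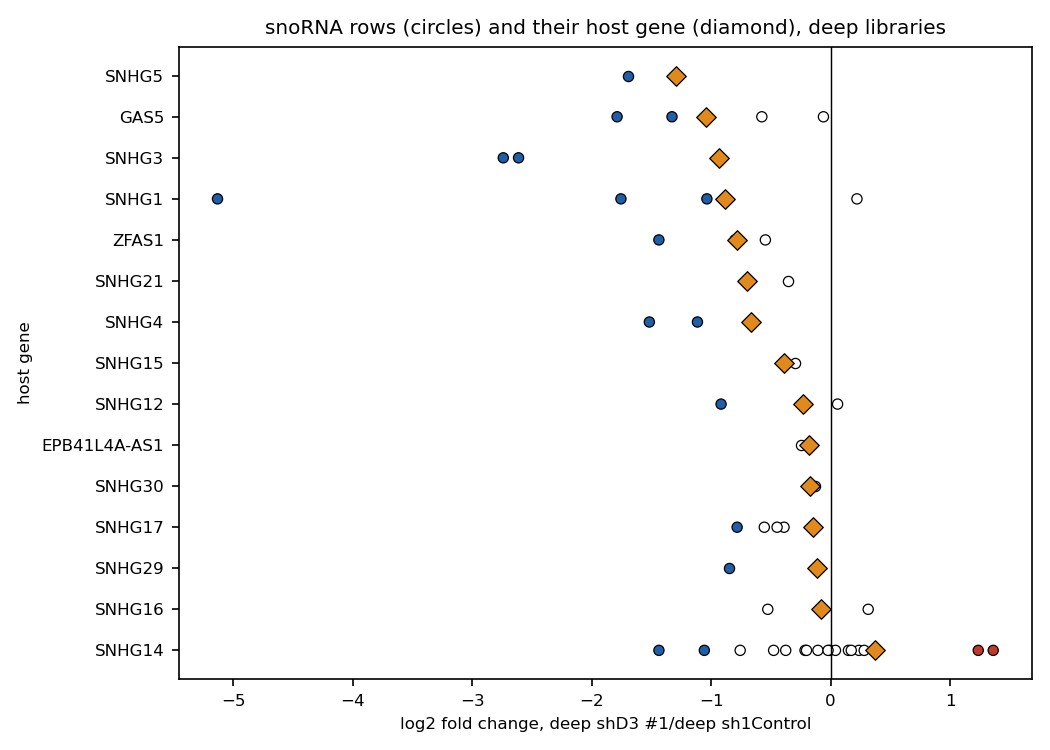
Log2 fold change (x axis, deep shD3 #1/deep sh1Control) of each tested snoRNA (circles) beside its host gene (orange diamonds), by host (y axis). Blue circles were called lower, red ones higher and white ones not called. The lowest circle is SNORD30 in SNHG1 (-5.13, a fitted value from 1 count in the knockdown that depends on the prior count and is no bound), and red circles appear in the row of SNHG14.

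The proteins that bind or process snoRNAs were listed apart, and their calls stand beside 9.42% (siD3 #3), 14.6% (shD3 #1), 4.49% (shD3 #4) and 14.1% (deep) of all genes called lower. Of 11 box C/D proteins and assembly factors, 6 were called lower in siD3 #3 and 2 in each of the other comparisons (10 were tested in the deep libraries), with medians of -0.59, -0.23, -0.40 and -0.41. FBL, the methyltransferase of the box C/D particle, was called lower in all 4, with log2 fold changes of -1.05, -0.63, -0.76 and -0.83. The 7 box H/ACA proteins had medians of -0.47, -0.13, -0.37 and -0.50, with 1 called lower in siD3 #3 (DKC1, -0.88), 1 in shD3 #1 (NOLC1, -0.66) and 1 in the deep libraries (NOP10, -1.01). The 16 nonsense-mediated decay factors had medians between -0.16 and -0.08, with at most 2 called lower. Protein-coding genes that host snoRNAs had medians of -0.16, -0.06, -0.11 and -0.11, with 36 of 231, 33 of 228, 12 of 230 and 31 of 232 called lower and 14, 24, 17 and 19 called higher (12.5%, 14.5%, 8% and 15% of all genes).

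Ribosomal protein genes, the other large family with a TOP start, differed between the comparisons. Their medians were -0.23 in siD3 #3, 0.44 in shD3 #1, -0.42 in shD3 #4 and -0.33 in the deep libraries. In shD3 #1, 25 of 85 were called higher and 1 lower, and in shD3 #4, 27 of 85 were called lower. The deep libraries had 25 of 83 called lower. The 10 listed regulators of TOP translation had medians from -0.20 to -0.02. Among the snoRNA host genes, the 12 tested with a pyrimidine run at the annotated start had medians of -0.21, -0.05, -0.13 and -0.44, and the 11 without one had medians of -0.20, 0.06, -0.18 and -0.70. With SNHG29 counted among those with a run, the medians were -0.16, -0.04, -0.13 and -0.35 for 13 genes and -0.23, -0.05, -0.18 and -0.71 for 10. Among the 12, 4 were called lower in siD3 #3, 1 in shD3 #1 and 5 in the deep libraries, beside 3, 1 and 6 of the 11. In shD3 #4 1 of the 11 (SNHG26) was called lower. These groups follow the annotated start. It lies 163 bases outside the GENCODE span in GAS5, sorted as without a run, and 154975 bases outside it in SNHG14, sorted as with one. The groups may therefore not separate genes with a TOP start in A549 cells from genes without one.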

How the data were processed

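The authors removed ribosomal RNA, made directional libraries, trimmed with Trimmomatic 0.40, aligned to GRCh38.p14 with STAR 2.7.10a and counted reads per gene. The deposited values are counts, without normalisation. The paper names RefSeq, whereas the first table uses Ensembl identifiers. STAR drops reads that overlap more than 1 gene. No column was left out. Gene positions came from GENCODE 44.

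The quasi-likelihood test of edgeR 4.0.16, run in R 4.3.3 after TMM scaling and filterByExpr, set every knockdown against the matching controls. Calls needed a Benjamini-Hochberg adjusted p under 0.05 and a change of at least 1.5-fold. Differences between effects were tested in 1 model. DESeq2 1.42.0 was an alternative. Overlapping genes were found by exon position.

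The genes and lists were chosen with earlier results of these data known. Genes named with values were GAS5, ZFAS1 and EPB41L4A-AS1, those called in at least 2 comparisons, the 5 of highest level per kb and the lowest and highest in each comparison. SNHG5, SNHG6, SNHG7, SNHG9, SNHG12 and SNHG17 and the single snoRNAs were named after their values were seen. Other genes on a list were its lowest or highest member, and FBL and DKC1 are known enzymes of their particles. The comparison of the deep with the first libraries was added after the data were seen.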

Additional observations from a re-analysis of the deposited data

Results flagged for a closer look

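The results here are differences between 2 effects, on the log2 scale, whose own test passed an adjusted p of 0.05 (edgeR, 1 model each). Between shD3 #1 and shD3 #4 the effect was higher in shD3 #1 for SNHG16 (0.84), SNHG29 (0.72), SNHG15 (0.71), SNHG12 (0.57), SNHG14 (0.45), SNHG20 (0.43), EPB41L4A-AS1 (0.38) and GAS5 (0.34). It was lower for SNHG4 (-0.49), SNHG7 (-0.33) and ZFAS1 (-0.30).

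Between siD3 #3 and the mean of the shRNA effects, the siRNA effect was lower for SNHG12 (-0.57), SNHG3 (-0.52), SNHG4 (-0.39), SNHG17 (-0.34) and SNHG8 (-0.29), and higher for ZFAS1 (0.28).

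Between the deep and the first measurement of shRNA #1, the deep effect was lower for SNHG19 (-2.00), SNHG21 (-1.46), SNHG6 (-1.30), SNHG5 (-1.28), GAS5 (-1.13), SNHG29 (-0.95), SNHG26 (-0.79), SNHG8 (-0.76), SNHG3 (-0.71), SNHG20 (-0.64), SNHG7 (-0.61), SNHG15 (-0.51), SNHG1 (-0.51), ZFAS1 (-0.42), SNHG16 (-0.41) and SNHG14 (-0.37). In this comparison SNHG29 and SNHG21 were called higher in the first libraries, and SNHG29 at -0.12 and SNHG21 at -0.70 were below their controls in the deep ones. Reads of the first and the deep libraries were counted with different gene annotations, and the part of this in the differences was not tested.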

How the results depend on the processing

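Among the values of the 13 named genes, 1447 kept direction and side of the threshold, 70 lost a call and 30 gained one under another setting, and 17 changed sign, all small or from few counts. A test of changes beyond the fold threshold (glmTreat) called 0 snoRNA host genes lower in siD3 #3, shD3 #1 and shD3 #4. Over all genes it called 766 of 17032, 1328 of 16456 and 179 of 16493 lower. A log2 threshold of 1 left 0, 0 and 0 lower there, 0 higher in shD3 #1 and 7 lower in the deep libraries. Over all genes it left 787, 1086 and 187 lower, 1194 higher in shD3 #1 and 1277 of 18763 lower in the deep libraries. With no fold threshold 1 gene was higher in siD3 #3 (16.6% of all genes), in shD3 #1 6 were higher (28.6%) and 8 lower (27.8%), in shD3 #4 the numbers were 1 (20%) and 11 (20.8%), and in the deep libraries 1 was higher (31.1%). One fit of all 17 libraries called 1 higher in siD3 #3. Unfiltered genes left 1 lower in the difference between the shRNAs, and 0 higher in that between siRNA and shRNA, as did DESeq2 and normalisation without mitochondrial genes. Leaving out 1 library gave 5 to 10 lower in siD3 #3, 2 to 3 higher and 1 to 2 lower in shD3 #1, 1 to 3 lower in shD3 #4 and 11 to 13 in the deep libraries. For the differences it gave 5 to 9 higher and 2 to 3 lower between the shRNAs, 0 to 2 higher and 2 to 10 lower between siRNA and shRNA (0 higher without siControl replicate 1 or 2, siD3 #3 replicate 1, sh1Control replicate 1 or 3, shD3 #1 replicate 1, sh4Control replicate 1 or 3, or shD3 #4 replicate 1 or 2, and 2 without shD3 #1 replicate 2), and 16 to 18 lower between deep and first. Without 1 siControl library the lone control was assumed to vary like the other group. Calls in shD3 #1 fell to 1 lower without sh1Control replicate 1 or shD3 #1 replicate 2, those in shD3 #4 to 1 without sh4Control replicate 1, and the difference between the shRNAs to 5 higher without sh1Control replicate 2. For siRNA against shRNA, 2 were lower without siControl replicate 1, 3 without siD3 #3 replicate 1 or 2, sh1Control replicate 2, sh4Control replicate 2 or shD3 #4 replicate 3, and 10 without siD3 #3 replicate 3.

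Same-numbered replicates correlated at -0.19 to 0.23 in their deviations from the group means, not above 0.1 in every pair, so the numbers were not taken as pairs. With the replicate number as a block, siRNA against shRNA had 10 lower, and no other count moved by over 1.5 times. Values that changed sign in siD3 #3 were EPB41L4A-AS1 (0.0066 with at least 10 counts, and -0.10 to 0.0070 without 1 library), SNHG16 (0.019 with at least 10 counts, 0.058 with the block, and -0.066 to 0.049 without 1 library), ZFAS1 (-0.0041 to 0.099) and SNHG21 (-0.28 to 0.056), the last 2 without 1 library. Leaving out 1 library also turned SNHG22 in shD3 #4 (-0.017 to 0.40). Between siRNA and shRNA it turned EPB41L4A-AS1 (-0.037 to 0.066, beside -0.0084 unfiltered and -0.0058 with the block) and SNHG14 (-0.22 to 0.045). Between deep and first it turned SNHG4 (-0.12 to 0.056) and SNHG22 (-1.10 to 0.79). The causes were not tested.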
